A study of Mus musculus with 12 samples.

Results

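The sites described here are the DNase I hypersensitive sites (DHSs, short stretches of open chromatin) that were found in every library of freshly isolated marrow progenitors and in no library of their cultured progeny. They were chosen by the peak lists themselves. Peaks of all 12 libraries were merged where they overlapped by 1 bp or more, on chromosomes 1 to 19 and X, and a merged site was kept when it held a peak in all 3 LSK libraries and in none of the other 9. This left 1104 LSK-only DHSs of 170207, or 0.649% of the consensus DHSs. Since the presence of peaks selected these sites, their openness in LSK cells and their absence elsewhere are descriptions and are not tested.

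The study followed Notch-driven entry of C57BL/6J mouse progenitors into the T lineage by DNase-seq, which cuts accessible chromatin with DNase I and calls places with many cuts as peaks. LSK cells (Lin- SCA1+ KIT+) are stem and progenitor cells of the marrow, taken fresh, in 3 libraries. DN1 (KIT++ CD44+ CD25-), DN2a (KIT++ CD44+ CD25+) and DN2b (KIT+ CD44lo CD25+) cells, with 2 libraries each, were sorted from LSK cells grown on immobilized Delta1, a Notch ligand. The IgG group, with 3 libraries, was LSK cells grown on human IgG without ligand. All cultured groups had SCF, FLT-3 ligand, IL-6 and IL-11, the DN2 cultures had IL-7 as well, and LSK cells had no culture at all, so culture and loss of the LSK state cannot be told apart at these sites. Stage and IL-7 cannot be told apart between DN1 and DN2. Between the Delta1 and IgG libraries, ligand cannot be told apart from the sorting of DN cells or from IL-7 in the DN2 cultures. The methods describe neither of these for IgG. Each LSK isolate could give several DN libraries, and the labels do not say which libraries share one. Replicate numbers only name a library.

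A marrow stem cell keeps open a set of enhancers, distal elements that loop to the promoters they activate. Many of these carry short recognition sequences for GATA2, for complexes of TAL1 with GATA factors, for ETS factors such as ERG, FLI1 and PU.1, for RUNX1, and for HOX proteins paired with PBX or MEIS. Those factors are known for sustaining the stem cell state, and several of them are switched off as T cell precursors commit.

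The lists held 53869, 54544 and 62377 peaks in LSK, up to 111582 in the Delta1 cultures and 37511 or fewer in IgG. Read depth is unknown, so a site absent from a short list may still be weakly open. The promoters of genes that bear on the sort were looked at first. Kit and Cd34 were open in 3 of 3 LSK libraries, and Cd3e, a T cell gene, in 0. The promoter of Ly6a, which encodes SCA1, held no peak in any library, while that of the lineage gene Itgam was open in 2 LSK libraries. Within 1 kb of a start, 16 to 17 of 24 promoters of stem and progenitor transcription factors were open in LSK libraries, 16 to 17 in DN1, 14 to 16 in DN2a, 15 to 20 in DN2b and 8 to 11 in IgG, which had the shortest lists. Over all genes, the mean share of open promoters was 51.5% in LSK, 51.9% in the Delta1 cultures and 42.8% in IgG. An open promoter is not a measure of expression.

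Sequences of 12 sites show what these elements hold. The first set holds 4 of the highest-ranked LSK-only DHSs by score. With them are the highest-ranked sites whose nearest gene is a stem cell transcription factor (Mycn, start 132 kb away) or surface gene (Adgrl4, start 1021 kb away). All are given 5′ to 3′ on the plus strand of GRCm38 (mm10), from RefSeq. Capitals mark motif letters on either strand, with adjoining or overlapping matches running together. The letters are known from zinc finger factors of the GATA family, AGATAA, from ETS factors, AGGAAG, and from RUNX factors, TGTGGT. Also marked are those of HOX with PBX, TGATTNAT, and of TAL1 complexes, CTGNNNNNNNNGATAA (a composite of part of an E-box with a GATA site). The site near Dgat1 is chr15:76512217-76512386, between genes and 0.348 kb upstream of the start. The site near Egfl7 is chr2:26571977-26572126, between genes, and that near Rgs3 is chr4:62699437-62699606, in a non-coding exon. The site near Slc46a3 is chr5:147918297-147918506, that near Mycn is chr12:12810177-12810386 and that near Adgrl4 is chr3:150416537-150416746, all between genes.
Dgat1: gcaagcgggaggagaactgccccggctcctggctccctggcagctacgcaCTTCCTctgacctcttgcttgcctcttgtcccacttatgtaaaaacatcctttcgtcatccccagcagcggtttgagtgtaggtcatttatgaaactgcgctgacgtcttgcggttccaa
Egfl7: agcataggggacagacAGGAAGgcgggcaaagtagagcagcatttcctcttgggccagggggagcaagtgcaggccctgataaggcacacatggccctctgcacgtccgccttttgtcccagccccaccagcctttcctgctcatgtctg
Rgs3: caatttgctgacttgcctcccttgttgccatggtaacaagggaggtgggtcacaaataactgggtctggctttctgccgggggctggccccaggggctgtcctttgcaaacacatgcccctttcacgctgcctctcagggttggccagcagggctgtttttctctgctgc
Slc46a3: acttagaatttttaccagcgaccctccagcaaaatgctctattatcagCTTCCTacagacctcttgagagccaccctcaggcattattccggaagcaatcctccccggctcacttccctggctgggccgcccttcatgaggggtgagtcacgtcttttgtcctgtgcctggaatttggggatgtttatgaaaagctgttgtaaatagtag
Mycn: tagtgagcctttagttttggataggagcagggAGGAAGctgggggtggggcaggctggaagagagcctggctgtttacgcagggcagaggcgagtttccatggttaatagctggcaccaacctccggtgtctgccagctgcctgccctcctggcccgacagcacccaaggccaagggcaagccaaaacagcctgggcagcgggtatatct
Adgrl4: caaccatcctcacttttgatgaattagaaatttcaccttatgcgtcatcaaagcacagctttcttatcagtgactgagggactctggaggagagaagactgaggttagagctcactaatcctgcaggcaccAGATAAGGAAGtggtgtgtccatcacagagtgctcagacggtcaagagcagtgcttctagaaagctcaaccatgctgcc

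Of these 6, only the site near Adgrl4 held a GATA match, and there it overlapped an ETS match. The site near Rgs3 held none of the 5 motifs. Over all LSK-only DHSs, the median percentile was 45.6 for sites with a GATA match and 38.8 for those without, with no test since both come from the sites chosen.

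The second set, chosen after the motif shares were seen, holds 3 high-ranked sites with a HOX and PBX match and 3 with the E-box and GATA composite. The sites with a HOX and PBX match are chr2:173171597-173171766 (between genes, near Pck1), chr2:117742517-117742666 (between genes, near Thbs1) and chr12:54651277-54651446 (in an intron, near Sptssa). Those with the composite are chr6:65583097-65583286 (near Tnip3), chr11:68019277-68019486 (near Stx8) and chr13:108647337-108647526 (near Pde4d), each in an intron.
Pck1: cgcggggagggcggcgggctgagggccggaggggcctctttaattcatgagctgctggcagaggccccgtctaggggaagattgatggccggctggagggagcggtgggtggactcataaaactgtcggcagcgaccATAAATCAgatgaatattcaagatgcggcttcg
Thbs1: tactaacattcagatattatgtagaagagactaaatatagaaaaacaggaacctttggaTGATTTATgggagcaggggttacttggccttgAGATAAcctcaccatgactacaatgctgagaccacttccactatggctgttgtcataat
Sptssa: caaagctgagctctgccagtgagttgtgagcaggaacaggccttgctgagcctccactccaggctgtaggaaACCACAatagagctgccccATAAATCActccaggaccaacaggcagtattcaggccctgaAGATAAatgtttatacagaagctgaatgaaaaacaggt
Tnip3: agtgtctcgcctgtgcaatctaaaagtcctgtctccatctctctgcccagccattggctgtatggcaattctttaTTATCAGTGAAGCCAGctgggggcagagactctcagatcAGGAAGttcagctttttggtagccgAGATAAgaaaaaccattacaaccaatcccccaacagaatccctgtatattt
Stx8: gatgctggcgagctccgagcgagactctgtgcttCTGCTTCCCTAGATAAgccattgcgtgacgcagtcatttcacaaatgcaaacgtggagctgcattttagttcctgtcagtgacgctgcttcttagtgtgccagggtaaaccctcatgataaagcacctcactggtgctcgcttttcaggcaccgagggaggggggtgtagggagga
Pde4d: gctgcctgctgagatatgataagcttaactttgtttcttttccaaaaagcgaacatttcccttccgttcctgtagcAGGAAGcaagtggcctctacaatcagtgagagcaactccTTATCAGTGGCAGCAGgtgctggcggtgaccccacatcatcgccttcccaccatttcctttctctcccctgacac

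All 3 of the HOX and PBX matches shown read TGATTTAT on one strand or the other. The sites near Thbs1 and Sptssa held a GATA match beside it, and the site near Sptssa a RUNX match as well. The site near Tnip3 held the composite, an ETS match and a separate GATA match in 190 bp.

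Letters bound by HOX with PBX, GATA letters and the composite were more frequent in LSK-only DHSs than in all DHSs, C/EBP letters were not, and RUNX letters were less frequent. For HOX with PBX, 76 of 1104 sites held a match in the central 150 bp, 6.88% (95% Wilson interval 5.54 to 8.53), against 1.58% of all consensus DHSs, a difference of 5.34 percentage points from the remaining DHSs (95% Newcombe interval 3.99 to 6.99). DHSs open in the IgG libraries alone had 2.09%, a difference of 4.80 points (3.34 to 6.50). DHSs shared by LSK and DN1 alone had 5.25%, and there the interval of the difference spanned 0 (-0.720 to 3.82). So did that for DHSs shared by LSK and IgG alone, with matches in 8 of 168 (4.76%, -2.43 to 4.98). Intervals on shares of sites cover counting error only, since sites are not replicates.

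One spelling, singled out after its values were seen, carried most of this. TGATTTAT was in 55 LSK-only DHSs, 4.98% (3.85 to 6.43), and in 0.499% of all consensus DHSs. It was in 3.94% of DHSs shared with DN1 alone, 0.311% of DHSs of IgG alone and 0.0689% of those open in all 12 libraries. The spellings TGATTGAT (0.453%), TGATTAAT (0.906%) and TGATTCAT (0.906%) stayed under 1% of LSK-only DHSs, and over all DHSs they were as common as TGATTTAT to within a factor of 2, at 0.330%, 0.256% and 0.515%. The matches also lay nearer the middle of the site. Of 80 matches in LSK-only DHSs, 38 (47.5%) had their centre within 25 bp of the midpoint, against 34.3% of 2779 matches in all DHSs.

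The share was lower where DHSs of LSK cells were open in more of the other libraries. Among DHSs with a peak in all 3 LSK libraries, HOX and PBX matches were in 6.88% with no other library, 3.99% with 1 other, 4.07% with 2, 2.93% with 3, 1.32% with 6 and 0.559% with all 9. Sites within 1 kb of a gene start made up 58.0% of the DHSs open in all 12 libraries and 7.52% of LSK-only DHSs. With such sites left out, HOX and PBX matches were in 0.929% and 7.35%. DHSs just outside the rule, with a peak in 2 of 3 LSK libraries and no other, had 5.31% (4.31 to 6.52). Those of a single LSK library had 2.96% (2.59 to 3.37).

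**Figure D1:**
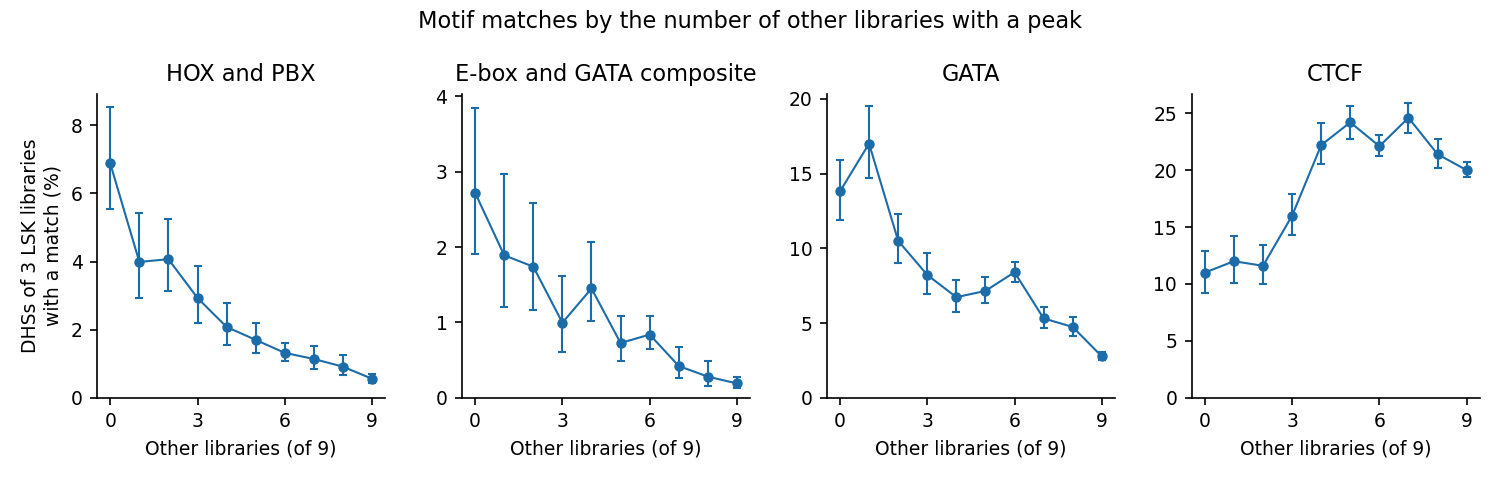
Share of DHSs with a peak in all 3 LSK libraries that hold each motif in the central 150 bp (y axis, percent, with 95% Wilson intervals) by the number of the other 9 libraries with a peak (x axis). HOX and PBX matches fall from 6.88% to 0.559% and the composite from 2.72% to 0.191%, while CTCF matches are more frequent with 9 other libraries than with none.

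The GATA letters AGATAA were in 152 LSK-only DHSs, 13.8% (11.9 to 15.9), against 8.25% of all DHSs (5.56 points from the rest, 3.64 to 7.72). The share was 13.4% in DHSs shared with DN1 alone, 3.57% in those shared with IgG alone and 5.17% in those of IgG alone. By breadth it peaked at 17.0% with 1 other library and was 2.77% with all 9. With sites within 1 kb of a gene start left out, GATA matches were in 14.6% of LSK-only DHSs and 4.48% of those open in all 12 libraries. The E-box and GATA composite was in 30 LSK-only DHSs, 2.72% (1.91 to 3.85), against 2.33% of DHSs shared with DN1 alone (difference 0.385, -1.25 to 1.83), 0.627% of all DHSs and 0.0934% of DHSs of IgG alone, with a difference of 2.62 points from the latter (1.80 to 3.76). DHSs shared by LSK and IgG alone held the composite in 0.595%, and the interval of that difference spanned 0 (-0.695 to 3.36). The composite letters contain GATAA, so some matches count under both motifs.

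ETS letters (AGGAAG) were the most common of those searched, in 46.0% (43.1 to 49.0) of LSK-only DHSs and 33.5% of all DHSs. DHSs shared with DN1 alone had still more, 57.6%, which was 11.6 points above the LSK-only share (interval for LSK-only minus shared -16.2 to -6.81). RUNX letters (TGTGGT) were less common in LSK-only DHSs, 17.6% (15.4 to 19.9), than in all DHSs, 23.0%, and than in those shared with DN1, 24.6%. No match to GATA, ETS or RUNX letters was found in 425 LSK-only DHSs (38.5%), against 28.6% of DHSs shared with DN1 alone and 47.6% of all DHSs. All 3 were in 9 sites (0.815%), near the 0.690% of all DHSs.

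C/EBP letters (TTGCNNAA), of factors known for the myeloid programme, were in 7.79% (6.35 to 9.52) of LSK-only DHSs, close to the 7.91% of all DHSs. They were in 45.8% of DHSs shared with IgG alone and 41.9% of those of IgG alone, and the LSK-only share minus the latter was -34.1 points (-36.3 to -31.7). AP-1 letters (TGANTCA) were in 9.06% of LSK-only DHSs, 7.66% of all DHSs and 18.2% of DHSs of IgG alone. The letters ATCAAAG of TCF1 and LEF1, factors of the T lineage, were in 1.54% (0.964 to 2.45) of LSK-only DHSs and 2.78% of all. The MEIS letters TGACAG (13.8% and 12.8%), the E-box CAGATG (13.9% and 13.6%), MYB letters AACNGTT (2.90% and 2.79%) and IRF letters GAAANNGAA (5.98% and 6.05%) gave differences from the rest whose intervals spanned 0. The E-box CAGCTG was in 14.1% against 11.5% of all DHSs, NF-Y letters (CCAAT) in 19.8% against 16.9%, and the CTCF letters CNAGNNGGC in 121 LSK-only DHSs (interval 9.25% to 12.9%) against 12.5% of all. At equal list lengths the NF-Y, CTCF, MYB and AP-1 directions turned, to 17.4% against 18.4%, 15.6% against 14.4%, 1.75% against 2.88% and 6.94% against 9.08%, and C/EBP letters were in 6.87% against 10.7%. For all 15 motifs searched, a match describes letters only and not a bound factor. LSK-only and all DHSs had a like GC content in the same 150 bp, 51.2% ± 7.93 (SD over sites) and 50.5% ± 9.23. Other sets differed, with 60.1% ± 9.72 in DHSs open in all 12 libraries and 45.6% ± 5.70 in DHSs of IgG alone. With sites within 1 kb of a gene start left out, DHSs of all 12 libraries had 54.7% and LSK-only DHSs 50.5%. The part of GC content in the motif shares, also by number of other libraries, was not tested.

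**Figure D2:**
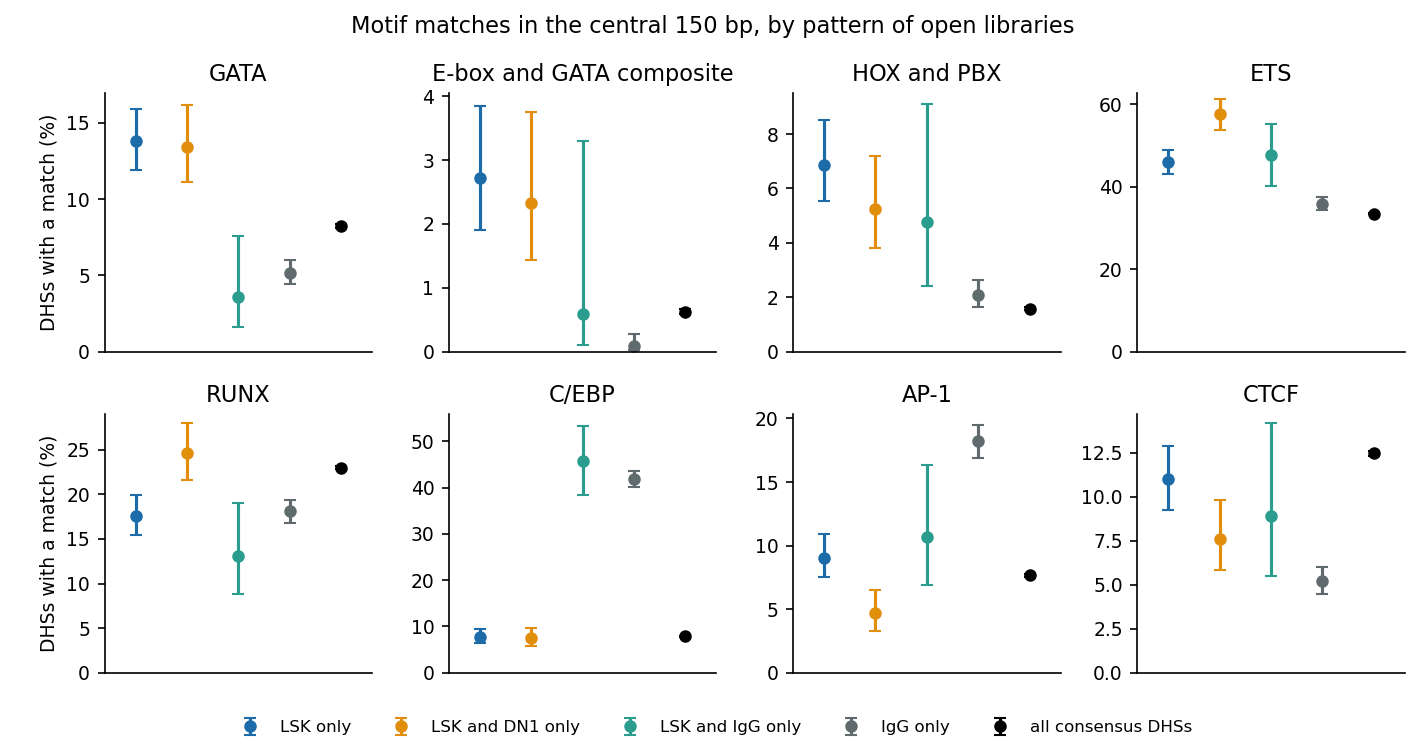
Share of DHSs with a motif match in the central 150 bp (y axis, percent, starting at 0) for LSK-only DHSs, DHSs shared by LSK with DN1 alone or with IgG alone, DHSs of IgG alone, and all consensus DHSs. Points are shares and bars 95% Wilson intervals. LSK-only DHSs lie at 6.88% for HOX and PBX and 13.8% for GATA, above all DHSs at 1.58% and 8.25%, and at 7.79% for C/EBP, far below the DHSs of IgG.

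How far these sites belong to LSK cells was then described by their neighbours in the rule. Of 38683 DHSs with a peak in all 3 LSK libraries, 1104 (2.85%) had no other library, 953 had exactly 1 other and 13068 (33.8%) had all 9. Of the 953, the single other library was DN1 replicate 1 for 586 (61.5%) and DN2b replicate 2 for 174 (18.3%). These are the 2 longest lists, with 96436 and 111582 peaks. The counts did not follow list length throughout. DN1 replicate 2 had 60 and the DN2a libraries 17 and 13, DN2b replicate 1 had the fewest, 9, and the IgG libraries, with the shortest lists, had 36, 10 and 48. Without DN1 replicate 1 the rule would have kept 1692 DHSs.

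**Figure D3:**
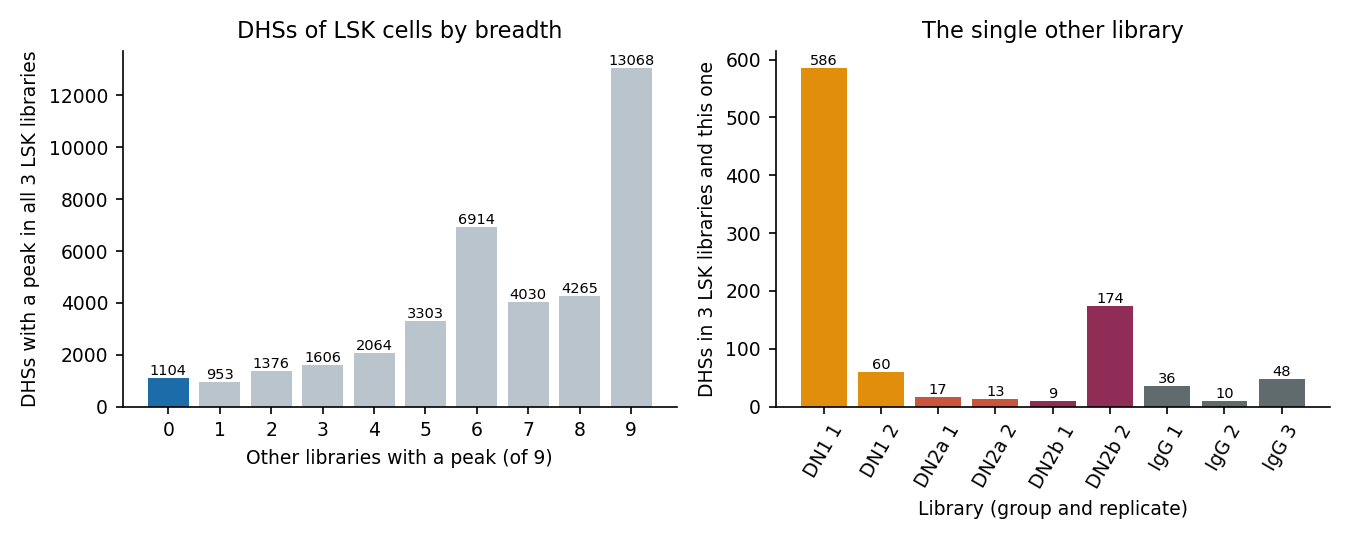
Left, number of DHSs with a peak in all 3 LSK libraries (y axis) by how many of the other 9 libraries had a peak (x axis); the LSK-only DHSs are the blue bar of 1104. Right, for the 953 DHSs with exactly 1 other library, which library it was, with DN1 replicate 1 at 586.

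Scores are whole numbers of unstated meaning, so each was turned into a percentile of its own list. The median percentile of LSK-only DHSs was 38.6 in LSK replicate 1, 37.2 in replicate 2 and 50.7 in replicate 3, a mean of 42.2 ± 7.45 (SD, n = 3). Replicate 3, the longest LSK list, ranked them highest. DHSs shared with DN1 alone stood at 46.2 ± 5.91 (SD, n = 3) in the same LSK lists, DHSs shared with IgG alone at 45.4 ± 5.55 and DHSs of all 12 libraries at 86.3 ± 0.881. Within LSK-only DHSs, 351 (31.8%), 312 (28.3%) and 560 (50.7%) lay in the upper 50% of the lists of replicates 1, 2 and 3. LSK-only DHSs therefore spanned the range but were seldom among the strongest peaks, with 6, 4 and 8 in the top 10%. In such bulk libraries, a site open in few cells and a site weakly open in many cannot be told apart.

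**Figure D4:**
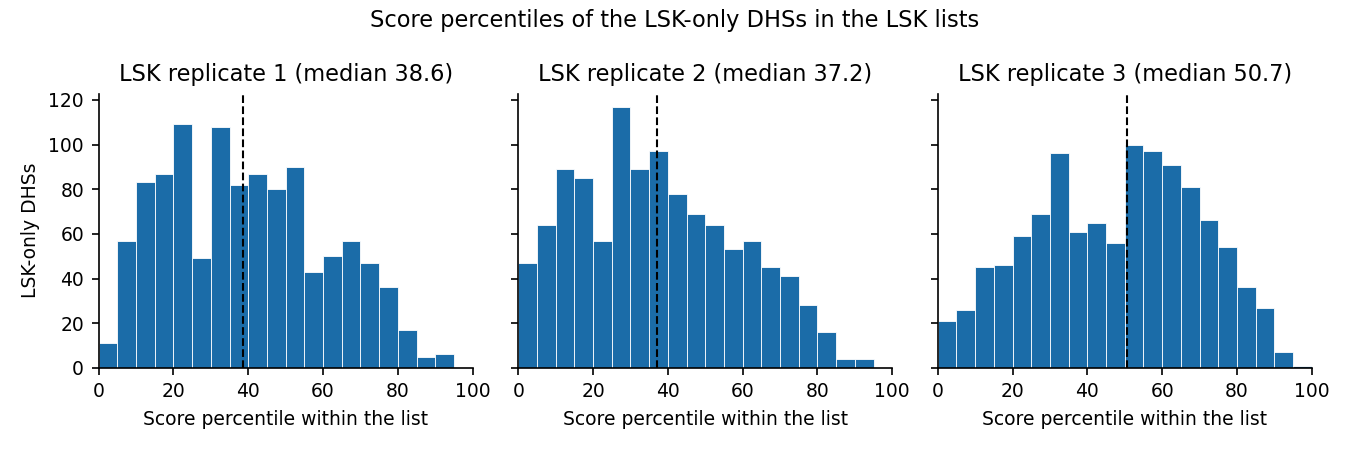
Number of LSK-only DHSs (y axis) by score percentile within the list (x axis, 0 lowest, 5-point bins) in each LSK library, with the median as a dashed line at 38.6, 37.2 and 50.7.

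The 3 libraries ranked the sites alike in part. Across the 1104 sites Spearman's rho was 0.609 between replicates 1 and 2, 0.712 between 1 and 3 and 0.636 between 2 and 3, as a description across sites. At the edges of the rule, the median of the mean LSK percentile was 39.7 for sites inside it, 22.9 for the 1583 DHSs of 2 LSK libraries and no other, and 41.8 for the 953 DHSs of 3 LSK libraries and 1 other, whose percentile in that other library had a median of 24.9.

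With every list cut to its highest-scoring peaks at the length of the shortest list, 1426 DHSs followed the pattern, and 315 of them were among the 1104 sites. That is 28.5% of the LSK-only DHSs as deposited and 22.1% of the LSK-only DHSs at equal length. Of the 1104, 330 (29.9%) kept no LSK peak at all at that length. Shortening only removes peaks, so the 1104 sites could lose LSK peaks there but gain none in the other 9 lists. Of the 1111 DHSs that followed the pattern at equal length alone, 1025 (92.3%) had a lower-ranked peak in a deposited DN1 list, 680 (61.2%) in a DN2b list, 509 (45.8%) in a DN2a list and 63 (5.67%) in an IgG list. The IgG lists were the shortest and the least shortened, and the part of list length in these shares was not tested. There were also 113 LSK-only DHSs (10.2%) within 500 bp of a peak of another library, and the median distance to one was 5.63 kb. For 276 sites, a subset looked at after the shares were seen, all 3 LSK lists kept a peak at equal length. No peak of another library lay within 500 bp of them. In these, HOX and PBX matches were in 9.42%, GATA matches in 17.4% and the composite in 2.90%.

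LSK-only DHSs were seldom at the starts of genes, and about as often in introns as all DHSs. Their midpoints were within 1 kb of the start of a protein-coding gene in 83 cases, 7.52% (6.11 to 9.23), against 16.5% of all DHSs. The LSK-only share was 10.6% at equal list lengths and 13.7% with the upper 50% of each list. The 16.5% is for lists as deposited, and the share of all DHSs at these other settings is not given here. DHSs shared with DN1 alone had 3.79%, which was 3.73 points lower (1.51 to 5.81), and DHSs shared with IgG alone 7.74%. Over 50 kb from the nearest start lay 551 LSK-only DHSs, 49.9% (47.0 to 52.9), against 30.9% of all DHSs and 33.3% of DHSs of IgG alone, a difference of 16.6 points from the latter (13.2 to 19.9). DHSs shared with DN1 alone had a like share, 48.8% (difference 1.08, -3.68 to 5.82). The median distance was 49.9 kb for LSK-only DHSs and 21.3 kb for all. Introns held 49.8% and intergenic sequence 39.9% of the LSK-only DHSs, against 49.5% and 38.0% of all, and 2.90% lay in coding exons.

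The sites were scattered. No chromosome held more than 88 (chromosome 4), and LSK-only DHSs made up between 0.475% (chromosome 11) and 0.919% (chromosome 16) of the DHSs of a chromosome. Only 40 of them lay within 10 kb of another, in 19 clusters. The 2 clusters of 3 were on chromosome 1 near Tfcp2l1, where 3 of the 4 consensus DHSs over 15.7 kb were LSK-only, and on chromosome 6 near Trh, where all 3 consensus DHSs over 10.1 kb were.

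Each site was paired with the protein-coding gene whose start was nearest, which is a position and not a target. The 1104 sites were nearest to 965 of 21755 genes, 4.44%. Of 24 stem and progenitor transcription factors, 9 (37.5%) were nearest to one. These genes have many open sites around them, so the share of their DHSs is the nearer measure. LSK-only DHSs were 10 of the 739 DHSs nearest to them, 1.35% (0.737 to 2.47), against 0.649% over all genes. For DHSs shared with DN1 alone the same shares were 1.89% and 0.403%.

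The LSK-only DHS near Mycn, a MYC family factor of progenitor growth, stood at percentiles 74.5, 66.4 and 78.7 in LSK replicates 1, 2 and 3. It lay 132 kb downstream of the start and 410 bp from a peak of another library. The Mycn promoter itself was open in 9 libraries, all but IgG. The site in an intron near Etv6, an ETS repressor that stem cells need, stood at 62.0, 39.7 and 64.3. The site near Gfi1, a repressor that restrains stem cell division, stood at 36.0, 49.3 and 76.3, the widest spread of these 3.

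A further 5 genes of the list, named after their values were seen, were Meis1, Prdm16, Mecom, Bcl11a and Hmga2. Meis1, a HOX cofactor, had its site at 36.0, 42.2 and 64.3. Prdm16 had 52.9, 22.4 and 62.8. Mecom, which encodes the stem cell factor EVI1, had 12.6, 44.6 and 44.3. The sites of Bcl11a and Hmga2 had means of 31.6 ± 14.3 and 21.1 ± 16.2 (SD, n = 3). None of these 5 kept a peak in all 3 LSK lists at equal length, nor did the sites near Etv6 and Gfi1, while that near Mycn did. The 39 Hox genes themselves had 72 DHSs nearest to them, of which 1 was LSK-only, 1.39% (0.246 to 7.46), an interval that includes the 0.649% over all genes.

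Of 21 stem and progenitor surface and signalling genes, 3 were nearest to an LSK-only DHS, and 3 of their 371 DHSs were LSK-only (0.809%, 0.275 to 2.35), near the 0.649% over all genes. By gene this was 14.3%, against 4.44% of all genes. The highest was near Adgrl4, an adhesion receptor also known from endothelium, at 56.8, 42.2 and 50.7, but 1021 kb upstream of the start. The Adgrl4 promoter was open in 4 libraries, at percentiles 78.1, 75.1 and 80.2 in LSK and 20.5 in DN1 replicate 1. The intronic site near Mllt3, whose product sustains stem cells, stood at 27.3, 22.4 and 50.7. The one near Kit, which encodes the stem cell factor receptor, was among the weakest peaks of all, at 4.19, 6.12 and 4.88, in an intron 65.9 kb from the start. The promoters of Mllt3 and Kit were open in all 12 libraries.

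Of 19 B lineage and early lymphoid genes 3 were nearest to a site (0.792% of 379 DHSs, 0.270 to 2.30), near the 0.649% over all genes. Dntt, which encodes terminal deoxynucleotidyl transferase, had a site in an intron 2.84 kb from the start (chr19:41032017-41032206) at 71.3, 47.0 and 67.0. It held HOX and PBX, ETS and AP-1 matches. Its promoter held no peak in any library. The intronic site near Ebf1, a B lineage determinant, stood at 56.8, 31.6 and 70.6, and that near Sox4 at 21.2, 39.7 and 59.8.

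Of 20 T lineage genes, Zap70 and Hes1 had a site, 2 of 303 DHSs or 0.660% (0.181 to 2.37), near the 0.649% over all genes. Zap70, the T cell receptor kinase, had one at 62.0, 83.3 and 59.8, 35.9 kb from a start that held no peak in any library. The site near Hes1, a Notch target, lay 38.4 kb downstream (chr16:30102677-30102986) and stood at 67.7, 47.0 and 65.6. The Hes1 promoter was open in all 12 libraries, at 98.1 and 98.0 in the DN1 libraries and at 26.6, 17.0 and 37.6 in IgG.

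No LSK-only DHS was nearest to any of 21 erythroid and megakaryocyte genes (0 of 167 DHSs, Wilson upper limit 2.25%), 20 myeloid genes (0 of 208, upper limit 1.81%) or 18 interferon and antigen presentation genes (0 of 142, upper limit 2.63%). DHSs of IgG alone were 11 of the 208 DHSs of the myeloid genes, 5.29% (2.98 to 9.22), against 1.89% over all genes. The limits for LSK-only DHSs all include the 0.649% of all DHSs. Of 20 immediate early and AP-1 genes 1 had a site (Klf6, at 24.2, 51.4 and 16.0), 0.193% of 518 DHSs (0.0341 to 1.09), and of 12 endothelial and stromal marrow genes, a check for other marrow cells, 1 had one (Col1a2, at 30.2, 44.6 and 34.7), 0.562% of 178 DHSs (0.0992 to 3.11). Both intervals include the 0.649% over all genes.

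The highest-ranked LSK-only DHS lay 0.348 kb upstream of Dgat1, an enzyme of triglyceride synthesis, at 92.9, 88.4 and 95.6. It was 110 bp from a peak of another library, and the Dgat1 promoter window was open in all 12 libraries. That near Egfl7, a secreted factor of endothelium and stem cells, stood at 92.2, 91.4 and 89.3, lay 7.96 kb upstream of the start and was 310 bp from another library's peak. The site near Slc46a3 (92.2, 76.9 and 94.1) was 70 bp from one. So 3 of the 10 highest-ranked sites had a peak of another library within 500 bp.

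Some others at the top lay farther from other peaks. The site near Zfp236 stood at 92.9, 91.8 and 88.3, with the next peak of another library 11.5 kb away. That in an intron near Dpysl3 had 81.7, 93.2 and 88.8, held a HOX and PBX match and lay 13.5 kb from other peaks, and the Dpysl3 promoter held no peak in any library. The site near N6amt1, at 90.2, 81.4 and 85.2 and with a GATA and an ETS match, lay 109.8 kb from any peak of another library. The remaining 4 of the top 10 were near Rgs3, a regulator of G protein signalling (89.3, 84.6 and 89.7), Syde2 (84.8, 85.7 and 89.3), Ldlrad3 (79.6 and 90.5 in replicates 1 and 3, mean 84.7 ± 5.49) and Zfp608 (78.9 and 90.9 in replicates 1 and 3, mean 84.6 ± 6.03). Those near Rgs3 and Zfp608 lay 1.69 kb from a peak of another library, that near Ldlrad3 2.97 kb and that near Syde2 4.71 kb. All 10 of the highest-ranked sites kept the LSK-only pattern at equal length.

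Most genes with a site had 1 (850 of 965). Trpc6, a calcium-permeable channel, had the most, 4 of its 12 nearest DHSs. They lay at its start (66.4, 44.6 and 67.0), 1.28 kb into the gene (63.5, 75.1 and 85.8) and as a pair 56.1 and 57.4 kb upstream (54.9, 34.5 and 74.6, and 52.9, 3.38 and 32.1). No peak of another library came nearer than 10.2 kb to any of them. A further 22 genes had 3 sites. Zfp608 had 3 of 127 DHSs, with means of 84.6 ± 6.03, 74.4 ± 4.89 and 63.3 ± 9.71 (SD, n = 3), D7Ertd443e 3 of 11, Pde4d, a cAMP phosphodiesterase, 3 of 97 in introns up to 838 kb from the start, and 1700018B08Rik 3 of 18. The Pde4d promoter was open in 3 LSK libraries (75.5 in replicate 1 and 87.8 in replicate 3) and in DN1 replicate 2 (30.5).

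Among the 83 sites at promoters, 56 (67.5%) belonged to a promoter with no peak in any of the 9 other libraries within 1 kb of the start, 18 to one open in some of them and 9 to one open in all 9. Fhit, a tumour suppressor, had a site at its start (chr14:11162057-11162206) at 82.4 to 87.3, a mean of 84.5 ± 2.52 (SD, n = 3), with no peak of another library within 40.9 kb. Flywch2 had 84.8 and 76.3 in replicates 1 and 3, a mean of 79.0 ± 4.98 (SD, n = 3), and its promoter too held a peak in the LSK libraries alone. Rec8, a meiotic cohesin subunit, had 86.4, 80.6 and 85.8, and its promoter was also open in 3 Delta1-cultured libraries at 16.1, 40.5 and 45.6. Cacfd1 (80.3, 77.7 and 87.3) had a promoter open in all 12 libraries, with the next peak 70 bp away.

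Counted by gene, 58 promoters (0.267%) were open in the 3 LSK libraries and no other, and 19 of them (32.8%) followed the pattern at equal length as well. After Fhit and Flywch2 the highest of the 58, named after their values were seen, were Fbxo16 (66.4, 76.9 and 80.9), Araf, a RAF kinase (77.3, 72.2 and 73.6), Bpifb5 (63.5, 66.4 and 86.3) and Rsph1, a radial spoke protein of cilia (70.1, 63.6 and 81.6). Nos3, the endothelial nitric oxide synthase, followed at 70.1, 62.1 and 77.1.

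It was then asked whether the promoters of genes nearest to distal LSK-only DHSs stayed open in culture, and whether Delta1 and IgG cultures differed in this. The rule did not compare Delta1 with IgG, but it asked for no peak in 6 Delta1 lists and in 3 shorter IgG lists. Delta1 lists held up to 111582 peaks and IgG lists 37511 or fewer, so the choice of sites bore unequally on the 2 groups. What this did to the contrast was not tested, and the tests below cannot set it apart. The rule also fixed the promoter of 14 of these genes, where an LSK-only DHS overlapped the promoter window as well. At equal list lengths the promoters of the 896 such genes were open in 47.0%, 46.5% and 47.3% of cases in LSK libraries. They were open in 41.3% and 39.8% in DN1, 38.8% and 40.2% in DN2a, 41.3% and 40.7% in DN2b, and 39.7%, 37.2% and 38.7% in IgG. At equal lengths every cultured library was below every LSK library. This did not hold for the lists as deposited, where DN2b replicate 2 (61.7%) was above the LSK libraries (54.8%, 54.2% and 57.8%) and DN1 replicate 1 (56.4%) above 2 of them. Set against all genes in the same library at equal lengths, the share was 1.37 ± 0.640 points higher in LSK (SD, n = 3), 3.37 ± 0.698 points lower in the 6 Delta1 libraries and 3.55 ± 0.249 points lower in the 3 IgG libraries. Without the 14 genes, a setting added after the data were seen, LSK was 1.29 ± 0.580 points above all genes (SD, n = 3), the Delta1 libraries lay between -3.72 and -1.49 points and the IgG libraries between -3.29 and -2.76. Since the genes were picked by sites open in LSK, no test was made of LSK against the cultures. The 6 Delta1 libraries lay between -4.23 and -2.14 points and the IgG libraries between -3.76 and -3.27, so the groups overlapped. The difference of 0.178 points between Delta1 and IgG did not pass 0.05 (two-sided exact permutation test over 84 divisions, p = 0.679), nor did 0.245 points without the 14 genes (exact permutation test, p = 0.607). With lists as deposited the Delta1 libraries turned to 0.766 ± 2.14 points above all genes (SD, n = 6), beside 4.10 ± 1.05 in LSK (SD, n = 3), while IgG stayed at -3.59 ± 0.220 (SD, n = 3). The difference between Delta1 and IgG was then 4.35 points (exact permutation test, p = 0.0119, the smallest 84 divisions can give), and the list lengths of the 2 groups differ in the same direction. The part of list length in that result was not tested. All permutation tests here treat the cultured libraries as independent, although DN libraries can share an LSK isolate. The contrast of Delta1 with IgG also mixes ligand with the sorting of DN cells and with IL-7 in DN2a and DN2b.

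**Figure D5:**
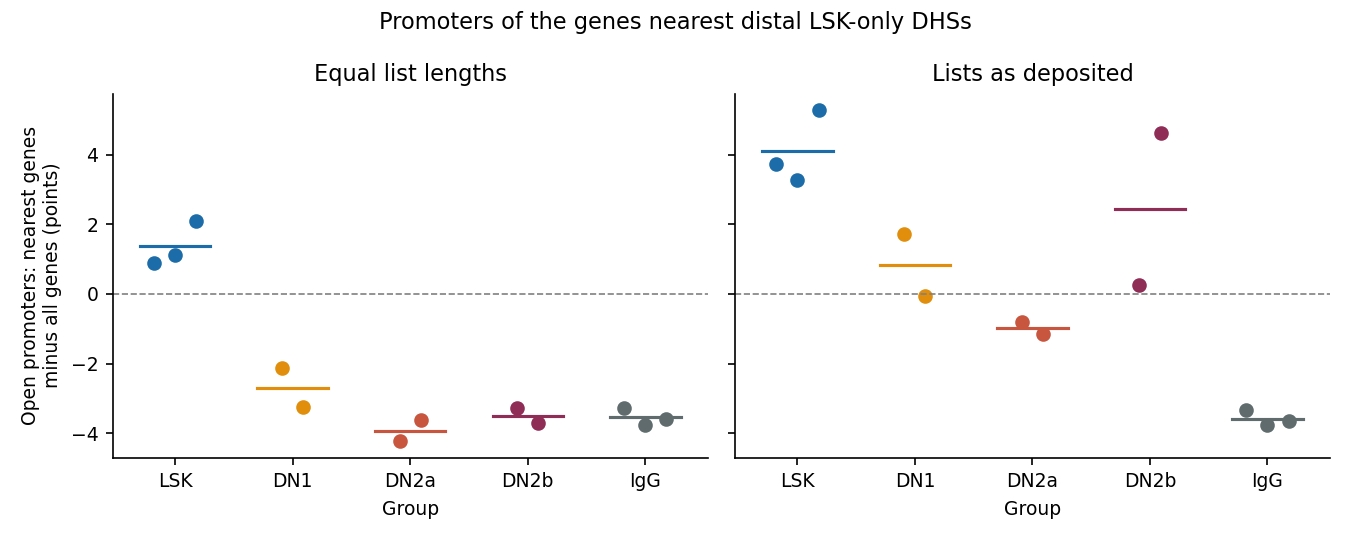
Percentage of the 896 genes nearest to distal LSK-only DHSs whose promoter held a peak, minus that percentage over all protein-coding genes (y axis, percentage points), per library (points) with the group mean (lines), at equal list lengths (left) and as deposited (right). At equal lengths the LSK libraries lie above 0 and the other 9 between -4.23 and -2.14.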

How the data were processed

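DNase-seq was run on 12 mouse libraries, grouped by the labels. Per the study's methods, the authors removed adapter sequence, mapped read pairs to mm10 (BWA 0.7.12 and SAMtools 1.2 in the submitters' processing notes) and kept hotspot2 peaks at an FDR of 0.05. One list per library was deposited. The deposited lists give each 150 bp peak a score whose meaning is not stated, so scores were used only as mid-rank percentiles within a list. No read totals were given. List length moves what can be absent, so lists cut to the length of the shortest (ties broken in file order) stand beside the lists as deposited.

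Python 3.11.15 with numpy 2.4.6 was used. Promoters were windows of 1 kb around the starts of 21755 protein-coding genes in GENCODE release M21. Sequence came from RefSeq GRCm38.p6. Motifs were exact letters on both strands, each share set beside that of all consensus DHSs of the same window. Wilson and Newcombe intervals (95%) cover counting error. The scripts were tested on simulated data.

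The members, gene lists and tests were chosen with earlier results of these data known. Named genes were the 10 highest-ranked sites, up to 4 genes of each list, the 5 genes with most sites and the 5 highest-ranked promoter sites. Some genes that the rule names are not reported here.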

Additional observations from a re-analysis of the deposited data

How the results depend on the processing

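The number of LSK-only DHSs was 713 with the upper 50% of each list, 2687 with a peak in at least 2 of 3 LSK libraries and 1113 to 1814 with 1 library left out, the higher values without LSK replicate 1 (1756), LSK replicate 2 (1814) or DN1 replicate 1 (1692). The promoter share was 10.6% at equal list lengths, 13.7% with the upper 50%, 6.05% with no other peak within 500 bp, 6.07% and 10.5% with windows of 500 bp and 2.5 kb, 11.1% with every transcript start, and 7.28% to 8.88% with 1 library left out. The median percentile was 62.1 at equal lengths, 69.2 with the upper 50%, 30.2 with 2 of 3 LSK libraries, and 32.4 to 42.2 with 1 library left out. The first 2 of these keep higher-scoring peaks by construction.

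The difference in promoters between Delta1 and IgG turned to -0.00967 points for sites of the equal lists and to -0.0247 with no other peak within 500 bp, and was -0.0903 to 0.724 with 1 library left out, below 0 without IgG replicate 3 (exact permutation p from 0.0714 to 0.982). It was 1.88 with the upper 50% of each list (exact permutation p = 0.143). It passed 0.05 with lists as deposited (4.35, exact permutation p = 0.0119) and with 2 of 3 LSK libraries (0.835, exact permutation p = 0.0357). The cause was not tested.

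HOX and PBX matches were in 4.98% of LSK-only DHSs at equal lengths, against 1.51% of all DHSs at that length, and in 5.84% to 7.06% with 1 library left out. GATA matches were in 13.7% at equal lengths and 17.6% without DN1 replicate 1. In a 300 bp window the shares were 10.1% for HOX and PBX, 21.6% for GATA, 58.2% for ETS and 25.7% for RUNX, against 3.45%, 15.3%, 47.2% and 32.5% of all DHSs. Settings other than this window were added for motifs after the data were seen. No paired analysis was possible because the replicate numbers used here follow the order of deposit and the labels do not say which libraries share an LSK isolate. Depth is unknown, and absence from a list is no proof of closed chromatin.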

Other observations

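HOX and PBX matches were also counted in the DHSs of each library at equal lengths, leaving out every LSK-only DHS. The share was 1.13%, 1.19% and 1.23% in LSK, 0.965% and 0.998% in DN1, 0.776% and 0.823% in DN2a, 0.757% and 0.817% in DN2b, and 1.24%, 1.22% and 1.53% in IgG. The LSK libraries thus stood above all 6 Delta1-cultured libraries outside the LSK-only DHSs too, whereas all 3 IgG libraries stood above LSK replicates 1 and 2. The composite was in 0.533%, 0.542% and 0.599% in LSK, between 0.416% and 0.533% in the Delta1-cultured libraries, and 0.211%, 0.271% and 0.260% in IgG. GATA matches ran higher in the Delta1-cultured libraries (5.62% to 6.76%) than in LSK (5.11% to 5.42%). These values were looked at after the motif shares were seen and are given without a test.

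Few LSK-only DHSs fell in repeats, as in some other sets. In 15 of 1104 (1.36%, 0.825 to 2.23) over 50% of the central 150 bp was masked as repeat, against 6.72% of all DHSs, 3.79% of DHSs shared with DN1 alone, 1.19% of those shared with IgG alone and 1.56% of those open in all 12 libraries. The difference from the last was -0.202 points (-0.782 to 0.691).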
